A study of Homo sapiens and Mus musculus with 34 samples.

Results

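Intronic transcripts with symbols ending in -IT and a number were followed across 4 human neuroblastoma lines given the kinase inhibitor CYC065. The authors' table for the lines BE2C and SHSY5Y lists 150 such symbols, and a symbol was kept when its change and mean level in both lines could be traced to a row of the deposited array values. That placed 148 of the 150 among the 32966 named genes tested, 128 of them on 1 row and 20 on 2 rows, of which the brighter was used. CRHR1-IT1 found no row and BRD2-IT1 shared one with another symbol, so neither was tested. The 150 symbols name 139 host genes, 9 of which have more than 1 intronic transcript, and the host itself was tested for 137 of the 148 members. The symbol alone makes a member, but which members were tested, and on which row, rests on the match of measured values.

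The suffix -IT is given by the human gene nomenclature to a long non-coding RNA that lies in an intron of another gene and on the same strand as it. Because both are read in one direction, RNA from such a locus can be an independent transcript or a piece of the unspliced precursor of the host, and an array probe set there cannot tell these apart. Cyclin-dependent kinases such as CDK9 release RNA polymerase II into elongation, so short treatment with an inhibitor acts first on transcripts that turn over quickly.

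RNA of each line was hybridised to Affymetrix human transcriptome arrays, 3 from untreated cells and 3 from cells exposed to CYC065 for 1 h, which gives 24 arrays in 8 groups. Kelly and BE2C are lines with an amplified MYCN gene, SKNAS and SHSY5Y are lines without it, and each line stands for a single tumour. The dose was 1 µM in the sample labels of all 4 lines, while the treatment protocol gives 5 µM for SKNAS. For the controls the labels say untreated, whereas the design text speaks of DMSO. The records of Kelly and SKNAS form an earlier block than those of BE2C and SHSY5Y, here called the earlier and the later deposit, and untreated levels were compared only within a deposit. The design text calls the replicates biological without saying whether they were separate cultures, so p-values measure the spread between these arrays. Replicates of a group correlated at r of 0.994 to 0.999 across genes. Of 12 sympathetic neuroblastoma markers, 12 lay above a log2 signal of 7 in untreated Kelly, BE2C and SHSY5Y cells and 5 in SKNAS, where 5 of 10 mesenchymal markers did so against 2 in each other line.

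RefSeq (assembly GRCh38.p14) was used for names and for neighbour relations. A total of 73 of the 150 symbols stand there under the same name and 14 as a synonym. In 6 of the 14 the entry is the host gene itself, as for ENO1-IT1, EHMT1-IT1 and NRG1-IT2, and in the other 8 a different gene, as for KLHL22-IT1, listed under the Y RNA pseudogene RNY1P9. Position was compared for 81 members with a host entry and an entry other than the host, the 8 listed under a different gene among them. Of these 81 entries, 74 lie within the bounds of the host and 7 outside them (EMCN-IT1, EMCN-IT2, CRHR1-IT1, KCNJ6-IT1, MLIP-IT1, BACH1-IT2 and BACH1-IT3). All 38 members for which RefSeq gives a start window for both member and host are on the strand of the host. The 63 symbols without an entry, KLF7-IT1 among them, are placed in their host by name only, and their position and strand there were not checked. The chromosome written in the row identifier matched that of RefSeq for 84 of 84 members.

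The start windows, from 250 bases before to 50 bases after each annotated start, show how these loci differ from their hosts. The 44 windows of members held a median of 3 CG dinucleotides (range 1 to 22), the 36 windows of their hosts a median of 30.5, and all 27305 windows of the table a median of 14. Only KCNH1-IT1 and RASA3-IT1 reached 20 CG among the members, whereas 25 of the 36 hosts did. The letters TATAAA, searched on both strands, occurred in 6 of 44 member windows (13.6%) and in 3264 of all 27305 windows. The sequences, with every CG in capitals, are those of a member called in Kelly, where its host was not (AGBL4-IT1, chr1:49472036-49472335, minus strand), that host (AGBL4, chr1:50023905-50024204, minus strand) and the CG-rich exception KCNH1-IT1 (chr1:211133325-211133624, minus strand), all read 5′ to 3′ from RefSeq on GRCh38.p14. A CG reads the same on both strands, and a count of letters is a description of the window only.
AGBL4-IT1: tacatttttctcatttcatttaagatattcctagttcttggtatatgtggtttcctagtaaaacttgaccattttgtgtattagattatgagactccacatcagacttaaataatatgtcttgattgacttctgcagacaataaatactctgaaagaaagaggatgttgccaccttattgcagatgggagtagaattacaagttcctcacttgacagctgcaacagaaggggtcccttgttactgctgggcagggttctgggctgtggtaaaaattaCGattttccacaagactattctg
AGBL4: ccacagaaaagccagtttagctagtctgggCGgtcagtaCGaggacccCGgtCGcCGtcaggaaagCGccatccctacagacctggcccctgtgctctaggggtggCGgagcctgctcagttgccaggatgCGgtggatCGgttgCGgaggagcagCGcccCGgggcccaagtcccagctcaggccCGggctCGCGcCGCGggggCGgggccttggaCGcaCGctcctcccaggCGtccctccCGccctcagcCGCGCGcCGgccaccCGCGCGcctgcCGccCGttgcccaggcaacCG
KCNH1-IT1: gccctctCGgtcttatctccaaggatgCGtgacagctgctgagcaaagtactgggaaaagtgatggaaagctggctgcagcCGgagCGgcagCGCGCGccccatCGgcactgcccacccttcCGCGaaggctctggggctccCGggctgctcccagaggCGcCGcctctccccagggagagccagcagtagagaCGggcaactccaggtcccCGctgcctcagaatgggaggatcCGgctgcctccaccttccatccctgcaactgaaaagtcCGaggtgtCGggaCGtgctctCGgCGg

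The members gave low signal. Their median untreated log2 signal was 3.88 against 5.41 over all named genes, and 123 of 148 lay below the median of all genes. The range was 2.13 to 8.16. In Kelly 93 of 148 members (62.8%) lay above the median of the 23 background control rows of the array, against 79.4% of all genes, and in SHSY5Y 81 of 148 did so (54.7%, against 75.0%). The means of single background rows ran from 2.01 to 12.22, so their median is a reference level and not a detection limit. The 6 members with the highest signal were HM13-IT1, FMR1-IT1, ARID4B-IT1, RSF1-IT1, GK-IT1 and SYNJ2-IT1. None of them was called in any line, and the mean change over the 4 lines of HM13-IT1, in the gene of a signal peptide peptidase, was -0.01 ± 0.03 (SE). FMR1-IT1 changed by 0.02 ± 0.04, RSF1-IT1 by 0.01 ± 0.04, GK-IT1 by -0.04 ± 0.03 and SYNJ2-IT1 by -0.01 ± 0.04 on the same scale.

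**Figure D1:**
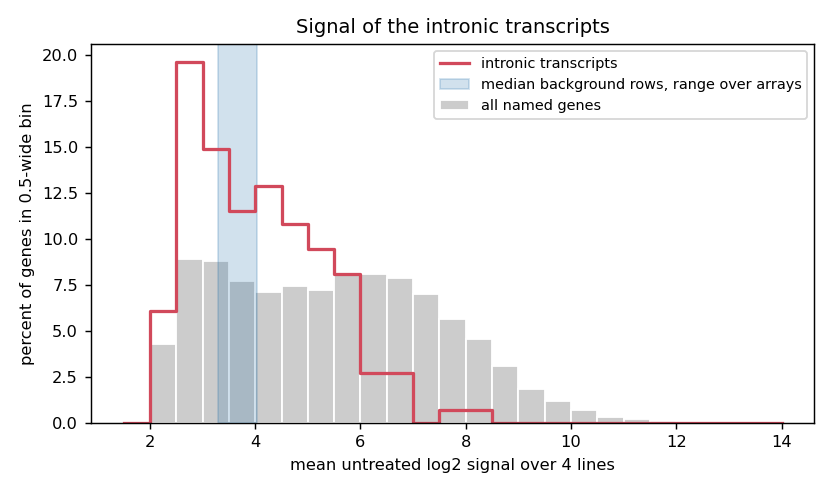
Percent of the 148 intronic transcripts (red line) and of all 32966 named genes (grey bars) by mean untreated log2 signal over 4 lines, in bins 0.5 wide; the blue band is the range over arrays of the median of the background control rows. The intronic transcripts crowd at the low end, with a median of 3.88 against 5.41.

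KLF7-IT1, named for the gene of the Krüppel-like transcription factor KLF7, was the member with the largest rise, and it rose where its host fell. In Kelly its log2 signal was 4.49, 4.49 and 4.67 untreated and 5.59, 5.57 and 5.63 treated. In SKNAS it was 4.31, 4.38 and 4.20 untreated and 5.18, 5.33 and 5.03 treated. In BE2C the values were 5.51, 5.18 and 5.61 untreated and 6.38, 6.24 and 6.35 treated. Every treated array of these 3 lines lay above every untreated array of the same line. In SHSY5Y the signal went from 4.65, 4.73 and 4.54 to 6.01, 5.85 and 5.40, again without overlap. No other member was higher without overlap in all 4 lines, and none was lower in all 4, against 0.98% and 4.63% of all genes.

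The change of KLF7-IT1 was 1.05 ± 0.06 in Kelly, 0.88 ± 0.09 in SKNAS, 0.89 ± 0.11 in BE2C and 1.12 ± 0.14 in SHSY5Y (log2, SE, n = 3 against 3), which is 1.84- to 2.17-fold. It was called in each line by limma (Benjamini-Hochberg adjusted p = 3.21e-05, 0.000384, 0.00806 and 0.00252 over all genes), and no array left out singly ended any of these calls. Only 47 of 32966 genes (0.143%) were called higher in all 4 lines, and 568 (1.72%) lower. The limma F test gave no call of a difference between the lines (adjusted p = 0.779), and the mean change over them was 0.98 ± 0.06 (adjusted p = 3.34e-11). The authors' deposited table lists adjusted p-values of 0.0211 for KLF7-IT1 in BE2C and 0.00891 in SHSY5Y.

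KLF7 itself fell in every line. Its signal went from 9.21, 9.15 and 9.33 to 8.30, 8.20 and 8.28 in Kelly and from 8.69, 8.73 and 8.76 to 7.95, 8.02 and 8.06 in SKNAS. In BE2C it went from 9.69, 9.75 and 9.79 to 8.91, 8.84 and 8.84, and in SHSY5Y from 9.59, 9.51 and 9.33 to 8.50, 8.48 and 8.36. No treated array reached an untreated one of its line. The changes were -0.97 ± 0.06, -0.71 ± 0.06, -0.88 ± 0.05 and -1.03 ± 0.09 in that order, all called by limma (adjusted p between 4.01e-05 and 0.000724).

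The per-array difference, KLF7-IT1 minus KLF7, describes the same values in 1 number and is given without a test, since the pair was picked for its opposite changes. Its mean over lines rose by 1.88 (log2), from rises of 2.02 in Kelly, 1.60 in SKNAS, 1.78 in BE2C and 2.15 in SHSY5Y. With Kelly and SKNAS alone the rise was 1.81, and with BE2C and SHSY5Y alone 1.96.

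**Figure D2:**
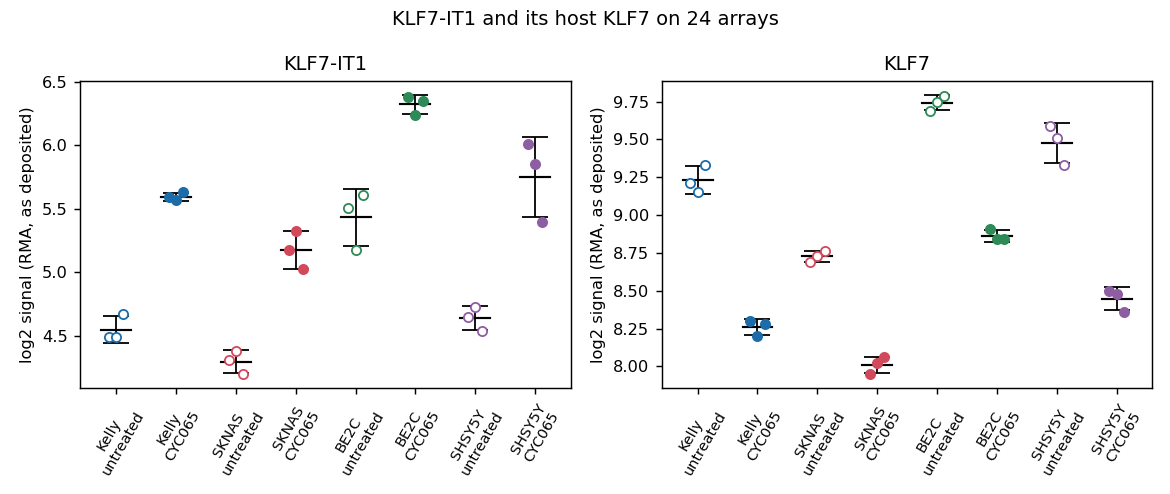
Log2 signal of KLF7-IT1 (left) and of its host KLF7 (right) on all 24 arrays, by line and treatment; open points are untreated arrays, filled points CYC065, bars the mean ± SD of 3 arrays. In each line the treated points of KLF7-IT1 sit above and those of KLF7 below the untreated ones; both axes start above 0.

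Kelly had the most changes among the members. There 26 of 148 were called (17.6%, adjusted p under 0.05), where 19.9% of all genes were, and the median change was 0.11 against 0.07. Of the 26, 23 were higher and 3 lower, while among all genes 8.92% were higher and 10.9% lower. Of 924 antisense transcripts named -AS, 73 were higher and 28 lower, and of 6 overlapping transcripts named -OT, which limma called in no line, 1 reached an unadjusted p under 0.05 in Kelly. Among the 16483 genes below the median signal 1489 were higher and 313 lower, and among the 123 members there 18 and 3. The median background rows of the array stood at 3.29 to 3.31 on untreated and 3.38 to 3.49 on treated Kelly arrays, and their part in the rises was not tested. After quantile normalization 17 members were called, 12 higher and 5 lower. Without untreated replicate 1 there were 10 calls (8 higher and 2 lower) and without untreated replicate 3 there were 13 (11 and 2); 7 members were called whichever of the 6 arrays was left out, namely ACAP2-IT1, AGBL4-IT1, ENO1-IT1, KLF7-IT1, LARGE-IT1, MAPT-IT1 and TCF7L1-IT1.

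Among the rises in Kelly, ACAP2-IT1 lies in the gene of a GTPase-activating protein for ARF6. It went from 4.08, 3.84 and 4.17 to 4.55, 4.70 and 4.79, without overlap, a change of 0.65 ± 0.10 (limma adjusted p = 0.00296). TCF7L1-IT1, in the gene of a transcription factor of the Wnt pathway, went from 2.94, 2.77 and 2.98 to 3.39, 3.18 and 3.37, a change of 0.41 ± 0.08 (adjusted p = 0.0104). AGBL4-IT1, in the gene of an enzyme that trims glutamates from tubulin, went from 2.94, 2.97 and 2.80 to 3.34, 3.42 and 3.17, a change of 0.41 ± 0.08 (adjusted p = 0.0101). For all 3 the untreated and treated arrays were separate, though TCF7L1-IT1 and AGBL4-IT1 lay below the median of the background rows in Kelly before and after treatment. None of the hosts was called in Kelly: ACAP2 changed by -0.07 ± 0.05, TCF7L1 by 0.09 ± 0.06 and AGBL4 by 0.15 ± 0.05. On the mean over lines AGBL4-IT1 rose by 0.22 ± 0.04 (adjusted p = 0.000579) and AGBL4 by 0.09 ± 0.03 (adjusted p = 0.0455, lost without 19 of 24 arrays, up to 0.0886). LARGE-IT1 (0.64 ± 0.12) and SIK3-IT1 (0.52 ± 0.12) are named here after their values were seen. MAPT-IT1 changed by 0.33, but its 2 rows lie on different chromosomes, so its row is uncertain.

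In 3 of the 15 members with the largest mean rises the host rose too in Kelly. ANKRD10-IT1 went from 6.69, 6.59 and 7.07 to 7.15, 7.28 and 7.47 there (0.52 ± 0.13, limma adjusted p = 0.0317), and its host, which encodes an ankyrin repeat protein, changed by 0.34 ± 0.07 (adjusted p = 0.0133), and in SKNAS by 0.34 ± 0.07 as well (adjusted p = 0.0261, lost without 5 of 6 arrays, up to 0.104). The Kelly call of ANKRD10-IT1 was lost on leaving out any of untreated replicates 1 and 2 and treated replicates 5 and 6 (adjusted p up to 0.0986), and that of ANKRD10 without 1 array (0.0537). In SHSY5Y the member changed by 0.52 ± 0.13, which did not pass (adjusted p = 0.0711); on the mean over lines it rose by 0.37 ± 0.07 (adjusted p = 0.000283) and ANKRD10 by 0.30 ± 0.04 (adjusted p = 1.96e-06). Its dimmer row gave 0.21 in Kelly and 0.87 in SHSY5Y. SMYD3-IT1, in the gene of a methyltransferase, rose by 0.30 ± 0.07 in Kelly (adjusted p = 0.0206) beside 0.26 ± 0.06 for SMYD3 (adjusted p = 0.0158); the call of the member was lost without 4 of 6 arrays, untreated replicates 1 and 3 and treated replicates 4 and 6 (adjusted p up to 0.0719), and after median centring (0.0573), and that of SMYD3 without untreated replicate 1 or 2 (up to 0.0618). The third host is MACROD2, which removes ADP-ribose from proteins; it rose by 0.20 ± 0.06 in Kelly (adjusted p = 0.0473, lost without any of 5 arrays, up to 0.153), and MACROD2-IT1 changed by 0.17 ± 0.06 there (adjusted p = 0.0814).

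ENO1-IT1 fell most among the members, within the gene of the glycolytic enzyme enolase 1. Its signal in Kelly was 5.80, 5.76 and 5.94 untreated and 4.85, 4.91 and 5.08 treated. In SKNAS it was 5.55, 5.14 and 5.26 untreated and 4.89, 4.46 and 4.79 treated, and in BE2C 5.12, 5.13 and 5.24 against 4.90, 4.78 and 4.94. In these 3 lines the groups did not overlap, while in SHSY5Y (4.98, 5.04 and 5.20 against 4.97, 4.91 and 4.99) they did. The change was -0.89 ± 0.08 in Kelly (limma adjusted p = 0.000167) and -0.60 ± 0.13 in SKNAS (adjusted p = 0.0295), and -0.29 ± 0.06 in BE2C (adjusted p = 0.0672) and -0.12 ± 0.08 in SHSY5Y (adjusted p = 0.668) did not pass. The SKNAS call was lost without untreated replicate 1 or 3 or treated replicate 5 (adjusted p up to 0.0994). ENO1 changed by -0.20 ± 0.05 in Kelly and -0.26 ± 0.06 in SKNAS (adjusted p = 0.0237 and 0.0377), calls that were lost without 4 and 5 of the 6 arrays (up to 0.0901 and 0.146). RefSeq lists ENO1-IT1 as a synonym of ENO1.

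PROX1-IT1 fell together with PROX1, a homeobox transcription factor of neural and lymphatic development. In Kelly the member went from 5.18, 5.22 and 5.71 to 4.82, 4.47 and 4.70 and in BE2C from 5.29, 5.52 and 5.32 to 4.55, 4.64 and 4.91, without overlap in either line. The change was -0.71 ± 0.15 in Kelly (limma adjusted p = 0.0151, lost without treated replicate 5, 0.052) and -0.68 ± 0.11 in BE2C (adjusted p = 0.02), and the second call was kept only without treated replicate 6 when single arrays were left out (adjusted p up to 0.0745 otherwise). In SKNAS it was -0.06 ± 0.06 and in SHSY5Y -0.25 ± 0.13, neither of which passed. PROX1 was called lower in Kelly (-0.67 ± 0.05), BE2C (-0.61 ± 0.06) and SHSY5Y (-0.50 ± 0.10) with adjusted p = 0.000113, 0.00282 and 0.023, and changed by -0.24 ± 0.06 in SKNAS (adjusted p = 0.0685). The SHSY5Y call of PROX1 was lost without 4 of the 6 arrays (up to 0.102). The authors' deposited table gives PROX1-IT1 an adjusted p of 0.0466 in BE2C; KLF7-IT1 and PROX1-IT1 are the 2 of its 150 members under 0.05 in that line, and KLF7-IT1 the 1 in SHSY5Y.

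In SKNAS most of the members called were lower. There 7 of 148 members were called (4.73%) against 5.94% of all genes, 1 higher (KLF7-IT1) and 6 lower, where 1.36% of all genes were higher and 4.58% lower, and the median change was 0.01 against 0.03. Below the median signal 4.88% of 123 members and 2.55% of genes were called, and above it 4% of 25 members and 9.32% of genes. Besides ENO1-IT1 the falls were ZBTB40-IT1, BIN3-IT1, AKAP11-IT1, ZNF638-IT1 and FAR1-IT1. Of 924 -AS transcripts 1 was higher and 20 lower. Without untreated replicate 1 or 3 there were 4 calls, and the 4 called whichever array was left out were AKAP11-IT1, KLF7-IT1, ZBTB40-IT1 and ZNF638-IT1. The dose in this line is the one on which labels and protocol differ.

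ZBTB40-IT1, in the gene of a zinc finger protein, went from 4.99, 5.07 and 5.10 to 4.58, 4.43 and 4.39 in SKNAS, a change of -0.59 ± 0.07 (limma adjusted p = 0.00124). AKAP11-IT1, in the gene of an anchor of protein kinase A, went from 3.66, 3.73 and 3.79 to 3.21, 3.21 and 3.27, a change of -0.50 ± 0.06 (adjusted p = 0.00144). ZNF638-IT1, in the gene of a nuclear RNA-binding zinc finger protein, went from 5.02, 4.95 and 5.08 to 4.63, 4.55 and 4.40, a change of -0.49 ± 0.08 (adjusted p = 0.00530). For each the groups were separate, and each host stayed uncalled in SKNAS: ZBTB40 changed by -0.19 ± 0.06, AKAP11 by -0.02 ± 0.07 and ZNF638 by 0.01 ± 0.08. BIN3-IT1 went from 4.87, 4.58 and 4.78 to 4.09, 4.36 and 4.14 (-0.55 ± 0.10, adjusted p = 0.0109), but its dimmer row changed by -0.14 and the mean of both rows was not called (adjusted p = 0.0757). That call was also lost without untreated replicate 1 or 3 (up to 0.0581). FAR1-IT1, in the gene of a fatty acyl-CoA reductase, changed by -0.29 ± 0.06 (adjusted p = 0.0275), a call lost whichever array was left out (0.0524 to 0.106). AKAP11-IT1 was called in Kelly as well (-0.41 ± 0.11, limma adjusted p = 0.0368), where AKAP11 fell too (-0.31 ± 0.04, adjusted p = 0.00208). The Kelly call of the member held only without treated replicate 5 when single arrays were left out (up to 0.0992). After treatment AKAP11-IT1 lay below the median of the background rows in SKNAS (3.23 against 3.38) and in Kelly (3.30 against 3.42). The size of both falls of AKAP11-IT1 is therefore uncertain.

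BE2C and SHSY5Y had few calls among the members. In BE2C there were 4 of 148 (2.70%) against 3.74% of all genes, with 3 higher (KLF7-IT1, NRG1-IT1 and FOXP1-IT1, the last named after its values were seen) and PROX1-IT1 lower, where 0.692% of all genes were higher and 3.05% lower. Below the median signal 3.25% of 123 members and 1.23% of genes were called in BE2C, and above it 0 of 25 members and 6.26% of genes. NRG1-IT1, in the gene of the growth factor neuregulin 1, went from 3.94, 3.85 and 3.85 to 4.17, 4.17 and 4.13, without overlap. Its change was 0.27 ± 0.05 (limma adjusted p = 0.0382), a call lost whichever array was left out (0.0797 to 0.143) and after quantile normalization (0.0866) or median centring (0.0543), and its dimmer row changed by 0.53. FOXP1-IT1 changed by 0.43 ± 0.08 (adjusted p = 0.0422) and lay below the median of the background rows in BE2C. Without untreated replicate 2 or 3 or treated replicate 4, KLF7-IT1 alone was called, and without untreated replicate 1 or treated replicate 5 there were 2 calls; quantile normalization left 2, 1 higher and 1 lower. In SHSY5Y KLF7-IT1 was the 1 member called (0.676%) by limma, against 4.37% of all genes (0.41% higher and 3.96% lower). Below the median signal 0.813% of the 123 members and 0.789% of genes were called, and above it 0 of 25 members and 7.95% of genes. An unadjusted limma p under 0.05 was reached by 12 of 148 members and 4228 of 32966 genes in SHSY5Y. With array weights, 18 members were called in SHSY5Y, 13 higher and 5 lower. The share of all genes called with these weights is not given here, so the 18 cannot be set against it. Without untreated replicate 1 or 3, and without weights, there were 2 calls in SHSY5Y. Across the 4 lines 32 members were called in at least 1 line, 4 in more than 1 and KLF7-IT1 in all 4, and no member was called in opposite directions in any pair of lines. The shares of all genes called in at least 1 line or in more than 1 are not given here, so these counts cannot be set against them.

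On the mean over the 4 lines 27 members were called (18.2%) against 28.5% of all genes, 19 higher and 8 lower, where 15.6% of all genes were higher and 12.9% lower. The median mean change was 0.06 against 0.04 over all genes. Below the median signal 18.1% of genes were called, against 18.7% of the 123 members there. Of these genes 15.2% were higher and 2.84% lower, and of these members 13.8% and 4.88%. After quantile normalization 16 were called, 7 higher and 9 lower. BE2C and SHSY5Y alone gave 6 calls, 5 higher and 1 lower, where 12.2% of all genes were called (3.7% higher and 8.5% lower). Kelly and SKNAS alone gave 21, 14 higher and 7 lower, where 22.1% of all genes were called (10.7% higher and 11.5% lower). Apart from KLF7-IT1, the calls were small, with the rises between 0.11 and 0.37 and the falls between -0.07 and -0.47, and KLF7-IT1 alone reached 1.5-fold.

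Some members passed on the mean over lines without passing in any line, CPS1-IT1, THRB-IT1, PLCB1-IT1, MACROD2-IT1, AOAH-IT1 and ATP2B2-IT2 among them. CPS1-IT1, in the gene of the first enzyme of the urea cycle, rose by 0.26 ± 0.07 (limma adjusted p = 0.00806), from 2.65, 2.70 and 2.67 to 2.86, 3.18 and 2.99 in SKNAS without overlap, while the groups overlapped in Kelly, BE2C and SHSY5Y. THRB-IT1, in the gene of a thyroid hormone receptor, rose by 0.18 ± 0.05 (adjusted p = 0.0189), PLCB1-IT1, in the gene of a phospholipase C, by 0.16 ± 0.05 (adjusted p = 0.0175) and MACROD2-IT1 by 0.16 ± 0.05 (adjusted p = 0.0113). AOAH-IT1 and ATP2B2-IT2 rose by 0.15 and 0.14 (adjusted p = 0.0309 and 0.0349), calls lost without 8 and 9 of the 24 arrays left out singly (up to 0.0698) and after quantile normalization, which also ended those of ACAP2-IT1, THRB-IT1, PLCB1-IT1, MACROD2-IT1 and BACE2-IT1. BACE2-IT1 rose by 0.18 ± 0.07 (adjusted p = 0.0486, lost without 16 of 24 arrays, up to 0.095) and by 0.37 ± 0.09 in Kelly (adjusted p = 0.0299, lost without 4 of 6 arrays, up to 0.0928). NRG1-IT1 rose by 0.17 ± 0.04 (adjusted p = 0.000825) while the brighter row of NRG1 fell by 0.13 (adjusted p = 0.0014). The mean of both NRG1 rows changed by -0.05 and was not called (adjusted p = 0.312). In all 4 lines CPS1-IT1, THRB-IT1, PLCB1-IT1, AOAH-IT1 and ATP2B2-IT2 lay below the median of the background rows, untreated and treated. That median itself rose by 0.13 in Kelly, 0.07 in SKNAS, 0.12 in BE2C and 0.15 in SHSY5Y, near the size of most of these rises, and its part in them was not tested.

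Among the falls on the mean over lines, KLHL22-IT1 has the entry of a Y RNA pseudogene within the gene of a ubiquitin ligase adaptor. It went from 4.27, 4.13 and 4.36 to 3.83, 4.04 and 3.61 in SKNAS and from 4.27, 4.52 and 4.61 to 4.10, 3.99 and 3.98 in BE2C, without overlap, and from 4.17, 4.52 and 4.30 to 4.02, 3.82 and 3.27 in Kelly, also without overlap. None of the 3 passed in its line (limma adjusted p = 0.0625, 0.0552 and 0.0503), and the mean change of -0.42 ± 0.09 did (adjusted p = 0.000955), with KLHL22 at 0.01 ± 0.03. SOS1-IT1, in the gene of an activator of RAS, fell by 0.19 ± 0.05 (adjusted p = 0.00287) and SOS1 changed by -0.06 ± 0.04. ARID4B-IT1 passed narrowly at -0.07 ± 0.02 (adjusted p = 0.0499, lost without 20 of the 24 arrays, up to 0.0927), and ZNF638-IT1 at -0.18 ± 0.06 (adjusted p = 0.0308, lost without 8 of 24 arrays, up to 0.0624). ASAP1-IT2, called in Kelly at 0.19 ± 0.05 (adjusted p = 0.0466), lost that call whichever array was left out (0.0651 to 0.126) and changed by -0.37 ± 0.10 in SKNAS (adjusted p = 0.0793).

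**Figure D3:**
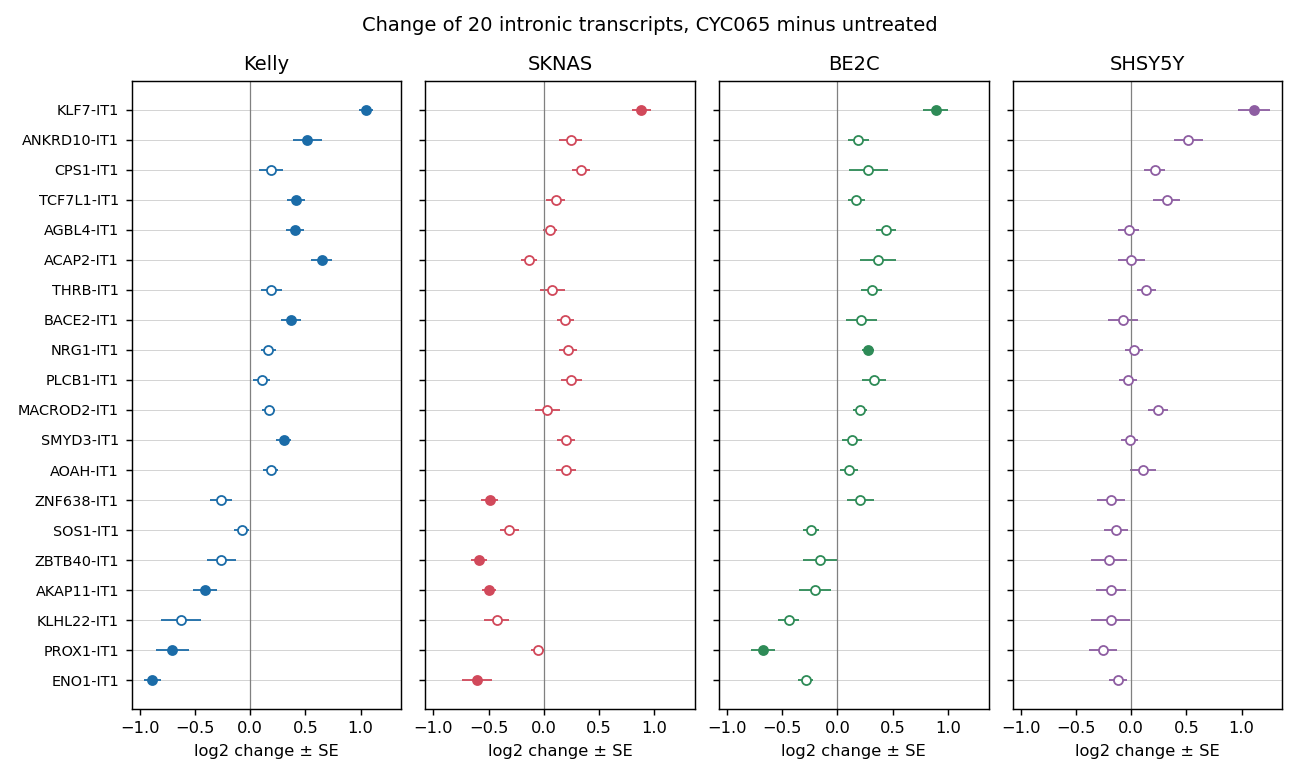
Log2 change (CYC065 minus untreated) ± SE, 3 arrays against 3, of 20 named intronic transcripts called in a line or on average whose mean change over lines was at least 0.15 in either direction, one panel per line; filled points passed an adjusted p of 0.05 in that line and open points did not. KLF7-IT1 at the top is filled in all 4 panels, and ENO1-IT1 at the bottom in Kelly and SKNAS.

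The calls of members were also set beside those of their hosts. Hosts were assigned by name alone. The pairs therefore include members whose RefSeq entry lies outside the host (EMCN-IT1 among them) or is the host itself (ENO1-IT1 among them). Over the 137 member and host pairs, 36 had a host that fell on the mean over lines, and in 6 of these the member was called and in 30 it was not, where 26 of all 137 paired members were called. On the mean over lines 43.8% of 128 hosts were called, 19.5% higher and 24.2% lower, against 28.5% of all genes and 39.0% of the genes above the median signal (15.9% higher and 23.0% lower). In Kelly 7.81% of hosts were higher and 22.7% lower, against 8.80% and 19.97% of the genes above the median signal. Both were called in 12 pairs, in the same direction in 10 and in opposite directions in 2, KLF7-IT1 and, for the brighter row of its host, NRG1-IT1. Across these pairs the change of the member and that of the host had Pearson's r of 0.02 and Spearman's rho of 0.22 on the mean over lines, and r of 0.09 in Kelly, 0.11 in SKNAS, 0.07 in BE2C and -0.14 in SHSY5Y. The points share arrays, and some share a host.

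The hosts called lower in all 4 lines were ARID4B, E2F3, KLF7 and RC3H1, 3.13% of 128 against 1.72% of all genes. The 128 hosts had a median untreated signal of 6.53, against 5.41 over all genes. The share called lower in all 4 lines among genes of like signal is not given here, so the 3.13% cannot be set against it. Of the intronic transcripts of ARID4B, E2F3, KLF7 and RC3H1, only KLF7-IT1 was called in a line, as were 32 of all 148 members. ARID4B, a chromatin protein of histone deacetylase complexes, went in Kelly from 7.90, 7.87 and 7.85 to 6.76, 6.74 and 6.81, and ARID4B-IT1 from 6.90, 6.88 and 6.95 to 6.82, 6.80 and 6.95. The arrays of the host were far apart and those of the member overlapped, with mean changes over lines of -0.88 ± 0.04 (limma adjusted p = 7.95e-14) and -0.07 ± 0.02. E2F3, a transcription factor of cell cycle entry, changed by -0.69 ± 0.04 and E2F3-IT1 by -0.05 ± 0.07, and RC3H1, which targets mRNAs for decay, by -0.46 ± 0.04 and RC3H1-IT1 by 0.10 ± 0.04 (adjusted p = 0.0767), both named after their values were seen.

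**Figure D4:**
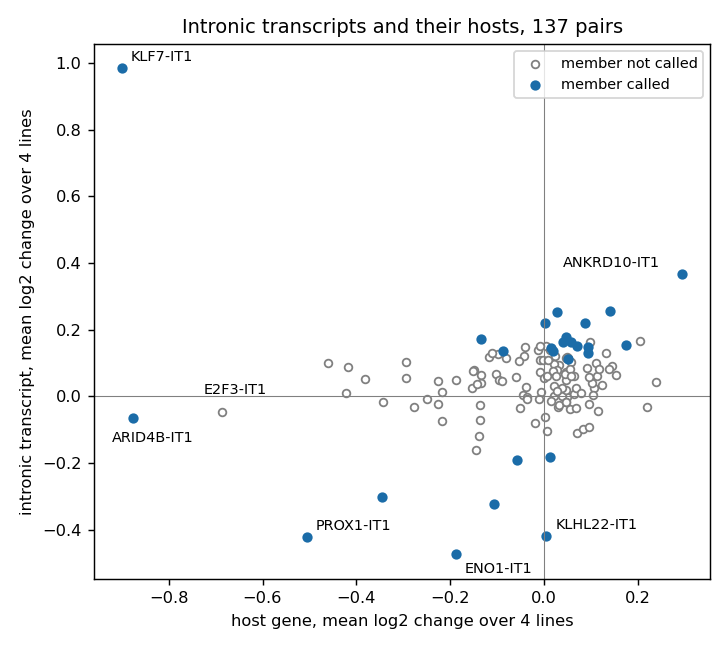
Mean log2 change over 4 lines of 137 intronic transcripts (vertical axis) against that of their host genes, assigned by name (horizontal axis). Filled points are members that passed an adjusted p of 0.05. KLF7-IT1 stands alone at the upper left, at 0.98 against -0.90, and ARID4B-IT1 and E2F3-IT1 lie near 0 beside hosts that fell.

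Whether the response differed between lines was tested in 1 fit to all 24 arrays. The limma F test called 4 of 148 members (2.70%) against 5.15% of all genes: ENO1-IT1 (adjusted p = 0.00681), ITCH-IT1 (0.0161), AGBL4-IT1 (0.0370) and ACAP2-IT1 (0.0452). Below the median signal it called 3.25% of 123 members and 2.01% of genes, and above it 0 of 25 members and 8.28% of genes. ENO1-IT1 fell most in Kelly and least in SHSY5Y, as given above, and kept the call whichever array was left out. ITCH-IT1, in the gene of a ubiquitin ligase, went from 2.87, 2.91 and 2.93 to 3.14, 3.31 and 3.15 in Kelly, without overlap (0.30 ± 0.06, adjusted p = 0.0129, lost without untreated replicate 1, 0.0547). In SKNAS it went from 3.09, 2.83 and 2.95 to 2.82, 2.80 and 2.81, also without overlap, a change of -0.15 ± 0.08 that did not pass (adjusted p = 0.35). AGBL4-IT1 went from 3.09, 3.15 and 2.94 to 3.59, 3.32 and 3.58 in BE2C, without overlap (0.44 ± 0.09, adjusted p = 0.0575), beside 0.06 ± 0.06 in SKNAS and -0.02 ± 0.09 in SHSY5Y. ITCH-IT1 and AGBL4-IT1 lay below the median of the background rows in all 4 lines, and ACAP2-IT1 in SKNAS, BE2C and SHSY5Y. The F calls of AGBL4-IT1 and ACAP2-IT1 were lost without 14 and 16 of the 24 arrays left out singly (adjusted p up to 0.0734 and 0.119) and that of ITCH-IT1 without Kelly treated replicate 5 (0.052); median centring left 2 of the 4 calls. The number of calls was 1 without Kelly treated replicate 5, and 2 without Kelly untreated replicate 1, SKNAS untreated replicate 1 or 2, SKNAS treated replicate 5 or BE2C untreated replicate 1.

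The lines with amplified MYCN, Kelly and BE2C, were set against the other pair, with 1 line of each kind in each deposit. The response was higher in the amplified lines for 3 members (2.03%), against 0.971% of all genes called, 0.425% of them higher and 0.546% lower. The difference was 0.57 ± 0.14 for ACAP2-IT1, 0.40 ± 0.09 for AGBL4-IT1 and 0.36 ± 0.07 for ITCH-IT1 (log2, limma adjusted p = 0.0433, 0.0242 and 0.0156). The call of ACAP2-IT1 was lost without 16 of 24 arrays (adjusted p up to 0.0943), after quantile normalization (0.0548) and after median centring (0.0527), and that of AGBL4-IT1 without 5 of 24 (up to 0.054). Without Kelly treated replicate 5 or BE2C untreated replicate 3 only 1 member was called. Only 4 lines enter, so MYCN status and the other ways in which these lines differ cannot be told apart. For PROX1-IT1 the difference of -0.54 ± 0.13 did not pass (adjusted p = 0.062). With dim genes left out none of the 3 was tested, and PROX1-IT1 was the 1 call (0.0490).

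Untreated levels were compared between the lines of a deposit. Between Kelly and SKNAS 36 of 148 members were called (24.3%) against 36.8% of all genes, 13 higher in Kelly and 23 lower, where 18.2% of all genes were higher and 18.6% lower. Of the 123 members below the median signal 28 were called (22.8%), against 2802 of the 16483 genes there (17%). Of the 25 members above it 8 were called (32%), against 56.7% of genes. NRG1-IT1 was 2.79, 2.91 and 2.98 in Kelly and 4.71, 4.88 and 4.85 in SKNAS, and NRG1-IT2 3.09, 3.16 and 3.32 against 4.54, 5.01 and 4.67. FGF14-IT1, in the gene of a growth factor relative that binds sodium channels, was 4.39, 4.41 and 4.46 against 5.63, 5.73 and 5.76. The lines did not overlap in any of the 3, with differences of -1.92 ± 0.07, -1.54 ± 0.11 and -1.28 ± 0.08 (limma adjusted p = 5.68e-11, 4.26e-08 and 9.34e-09). In Kelly NRG1-IT1 and NRG1-IT2 lay below the median of the background rows (3.30), so the size of their differences is uncertain. The hosts lay the same way, NRG1 at -0.93 ± 0.06 and FGF14 at -2.14 ± 0.07. KCNQ5-IT1, in the gene of a potassium channel, and ASAP1-IT2 were lower in Kelly by -0.81 ± 0.09 and -0.59 ± 0.09. Without Kelly untreated replicate 1 there were 23 calls and without SKNAS untreated replicate 1 there were 22.

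In the other direction RERG-IT1, in the gene of a RAS-related growth inhibitor, was 4.03, 3.93 and 4.50 in Kelly and 3.10, 3.07 and 3.01 in SKNAS, a difference of 1.10 ± 0.15 (limma adjusted p = 3.63e-05), with RERG at 1.72 ± 0.07. RERG-IT1 and ACAP2-IT1 lay below the median of the background rows in SKNAS (3.32), so the size of their differences is uncertain. ACAP2-IT1 was higher by 0.95 ± 0.12, TSSC1-IT1 by 0.73 ± 0.10, KCNH1-IT1, in the gene of a voltage-gated potassium channel, by 0.65 ± 0.09 and PROX1-IT1 by 0.64 ± 0.13. TSSC1 differed the other way (-0.24 ± 0.06). The host of ACAP2-IT1 was not called there (0.14 ± 0.07, adjusted p = 0.159), and in the later deposit ACAP2 differed by 0.95 ± 0.07 while ACAP2-IT1, below the background median in both lines, stood at -0.30 ± 0.12 (adjusted p = 0.0742).

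Between BE2C and SHSY5Y 13 members were called (8.78%) against 30.8% of all genes, 11 higher in BE2C and 2 lower, where 16.3% of all genes were higher and 14.5% lower. Below the median signal 10.6% of 123 members and 11.4% of genes were called, and above it 0 of 25 members and 50.2% of genes. KCNQ5-IT1 was 4.90, 4.92 and 4.57 in BE2C and 3.88, 4.04 and 4.01 in SHSY5Y (0.82 ± 0.09, limma adjusted p = 1e-05), and KLF7-IT1 differed by 0.79 ± 0.10 (adjusted p = 2.7e-05). The values of KCNQ5-IT1 did not overlap, and KCNQ5 differed by 1.43 ± 0.07. NRG1-IT1 was higher in BE2C by 0.68 ± 0.07, KLHL22-IT1 by 0.53 ± 0.15 and RERG-IT1 by 0.44 ± 0.15. NRG1-IT1 and RERG-IT1 lay below the median of the background rows in SHSY5Y (3.77). The call of RERG-IT1 was lost without 7 of the 12 untreated arrays (up to 0.159) and that of KLHL22-IT1 without 2 (0.057). KCNH1-IT1 was lower by -0.39 ± 0.09, beside -2.30 ± 0.12 for KCNH1, and ZDHHC20-IT1, in the gene of a palmitoyltransferase, by -0.27 ± 0.08 (adjusted p = 0.0172, lost without 3 of 12 arrays, up to 0.077, and after median centring, 0.0702), beside 0.78 ± 0.06 for its host. Without BE2C untreated replicate 1 there were 8 calls.

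**Figure D5:**
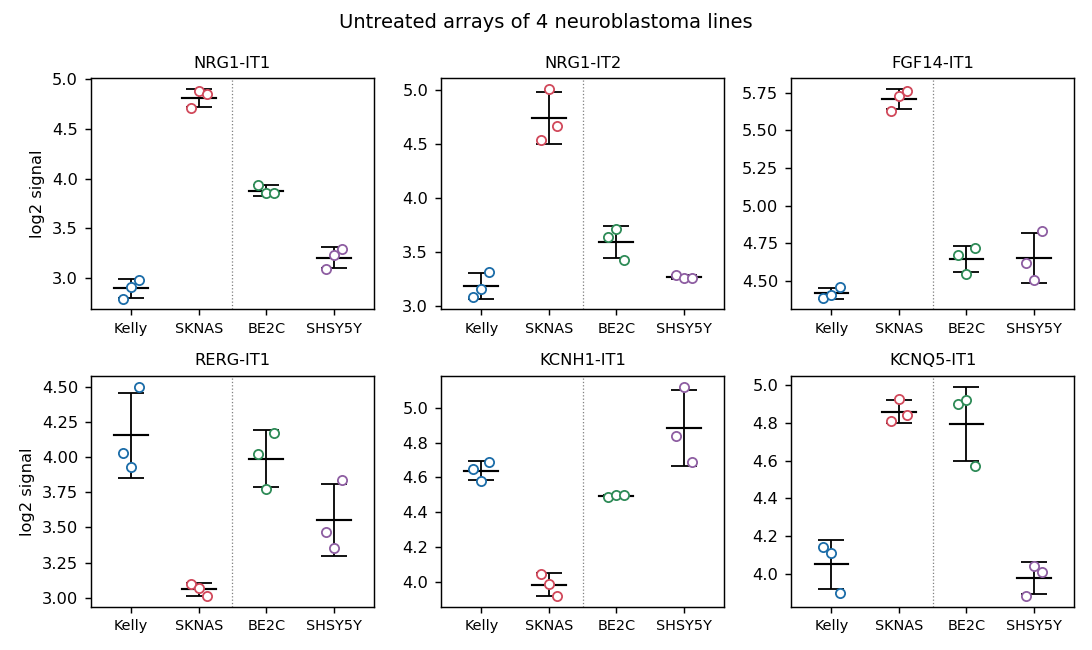
Log2 signal of 6 intronic transcripts on the 12 untreated arrays, by line; bars are the mean ± SD of 3 arrays and the dotted line parts the earlier deposit (Kelly, SKNAS) from the later (BE2C, SHSY5Y), which are not compared. NRG1-IT1 ran from 2.79 to 2.98 in Kelly and from 4.71 to 4.88 in SKNAS; the axes start above 0.

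The untreated differences of members and hosts were also set side by side, over the same pairs made by name. Over 137 pairs the difference between Kelly and SKNAS had Pearson's r of 0.48 and rho of 0.46 between member and host, and that between BE2C and SHSY5Y r of 0.34 and rho of 0.26. Between Kelly and SKNAS the member was called in 36 pairs, the host in 92 and both in 28, in the same direction in 24. Between BE2C and SHSY5Y the member was called in 12, the host in 66 and both in 9, in the same direction in 8. Of the 128 hosts 67.2% and 49.2% were called, against 36.8% and 30.8% of all genes. Among genes above the median signal the shares were 56.7% and 50.2%. The pairs share arrays and the correlations are descriptions of these lines.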

How the data were processed

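RNA of 24 human arrays was analysed, and mouse tumours of the same series were not used here. The authors deposited log2 values normalized by RMA, with affy and limma also named, per the submitters' processing notes; versions and the genome build are not given in the sources used here. The authors' deposited table for BE2C and SHSY5Y pairs symbols with log2 changes and p-values. A symbol was given to a value row when change and mean level in both lines agreed within 1e-07, and with 2 such rows the brighter was kept. No sequencing depth applies, and 3 arrays a group limit the precision.

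Changes were tested with limma 3.58.1 (R 4.3.3, lmFit and eBayes), with Benjamini-Hochberg adjustment over all 32966 named genes and a threshold of 0.05. Each line had its own fit to 6 arrays. The mean over lines, the F test between lines and the contrast by MYCN status came from 8 group means on 24 arrays, and untreated differences from 4 group means on 12 arrays. The fits were tested on simulated data. The named members are those called in a line or on average, up to the 15 largest in each direction by mean change, the 6 with the highest signal, up to 5 per direction and deposit of the called untreated differences, those called by the F test, and KLF7-IT1; 1 of them is not reported here. The members and lists were chosen with earlier results of these data known. Alternatives were quantile normalization, median centring, a spread shared over 24 arrays, array weights, a trend with robust eBayes, dim genes left out, a fold of at least 1.5, the mean of 2 rows, each deposit alone and each array left out.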

Additional observations from a re-analysis of the deposited data

Results flagged for a closer look

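The response to CYC065 differed between lines for 4 of 148 members by the limma F test: ENO1-IT1 (adjusted p = 0.00681), ITCH-IT1 (0.0161), AGBL4-IT1 (0.0370) and ACAP2-IT1 (0.0452). They were 2.70% of members, against 5.15% of all genes. Only ENO1-IT1 kept the F call whichever array was left out, and those of AGBL4-IT1 and ACAP2-IT1 were lost without 14 and 16 of 24 arrays. The difference between lines with amplified MYCN and the other lines was 0.57 for ACAP2-IT1, 0.40 for AGBL4-IT1 and 0.36 for ITCH-IT1 on the log2 scale, each past the limma threshold. Those 3 were 2.03% of members, against 0.971% of all genes, and only ITCH-IT1 kept this call whichever array was left out. ITCH-IT1 and AGBL4-IT1 lay below the median of the background rows in all 4 lines and ACAP2-IT1 in 3. These 7 values are singled out because groups responded differently under one contrast and the difference itself was tested.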

How the results depend on the processing

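No paired analysis was possible because untreated arrays are numbered 1 to 3 and treated arrays 4 to 6, so the groups share no replicate number. Asking for a fold of at least 1.5 left 5 calls in Kelly, 3 in SKNAS, 2 in BE2C, 1 on the mean over lines and 0 by MYCN status. In the comparison by MYCN status 24 of 148 members had an unadjusted limma p under 0.05, as had 3521 of 32966 genes. The same fold left 10 and 3 calls for untreated Kelly against SKNAS and BE2C against SHSY5Y. Quantile normalization gave 17 calls in Kelly, 2 in BE2C and 16 on the mean over lines. Leaving out dim genes gave 15 on the mean over lines, from fewer genes tested. It gave 2 between lines, ENO1-IT1 and FAR1-IT1, and 1 by MYCN status, PROX1-IT1, whose response was lower in amplified lines; ACAP2-IT1, AGBL4-IT1 and ITCH-IT1 were not tested there, so 1 of the 4 and 0 of the 3 limma calls over all genes remained. Median centring gave 2 between lines, BE2C and SHSY5Y alone 6 on the mean over lines, and in SHSY5Y a shared spread gave 2 and array weights 18; for the last 4 the cause was not tested. With each array left out, calls ran from 10 to 23 in Kelly, 4 to 9 in SKNAS, 1 to 3 in BE2C, 1 to 2 in SHSY5Y, 21 to 30 on the mean over lines, 1 to 5 between lines, 1 to 4 by MYCN status, 22 to 39 for untreated Kelly against SKNAS and 8 to 16 for untreated BE2C against SHSY5Y. The difference between KLF7-IT1 and KLF7 ran from 1.85 to 1.92. No named member or host reversed in sign while called. The median untreated signal of the members was 3.88. It lay near the median of the background rows (3.30 in Kelly to 3.77 in SHSY5Y), which limits what the signal of the members can show.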

Other observations

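The 20 members with 2 rows allow a second reading of the same symbol. NRG1-IT1 changed by 0.45 in SKNAS and 0.53 in BE2C on its dimmer row, against 0.22 and 0.27 on the brighter. N4BP2L2-IT2, picked after its values were seen, changed by 0.34 and 0.39 on its 2 rows in Kelly. In Kelly the member was called in 23 of 137 pairs and the host in 43, lower in 33. Of all 148 members 23 were called higher and 3 lower there. Member and host were both called in 9 pairs. In 5 the direction was the same (ENO1-IT1, PROX1-IT1 and AKAP11-IT1 lower, SMYD3-IT1 and ANKRD10-IT1 higher) and in 4 it was opposite, with the member higher and the host lower in each: KLF7-IT1, ITCH-IT1, BRWD1-IT2 and RNF216-IT1, the last 2 of which are named after their values were seen. BRWD1-IT2 changed by 0.26 beside -0.53 for BRWD1, and RNF216-IT1 by 0.28 beside -0.18 for RNF216. The Kelly call of ITCH was lost whichever array was left out (limma adjusted p from 0.0669 to 0.134). Those of ITCH-IT1, BRWD1-IT2 and RNF216-IT1 were not among the calls kept whichever array was left out. ITCH-IT1 also lay below the median of the background rows there.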
